A study of Mus musculus with 44 samples.

Results

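The nuclear genes of oxidative phosphorylation were followed here through RNA-seq of cultured mouse microglia and astrocytes that carried different Apoe alleles. The set holds every protein-coding gene of the count table whose symbol begins with Nduf, Uqcr, Cox4, Cox5, Cox6, Cox7, Cox8 or Atp5, together with Sdha, Sdhb, Sdhc, Sdhd and Cyc1. It came to 95 of the table's 54146 rows and 94 symbols, since Atp5o appears under a pair of gene identifiers. By respiratory complex these were 7 core subunits, 29 accessory subunits and 8 assembly factors of complex I, 4 subunits of complex II, 9 of complex III, 20 of complex IV (Ndufa4 and Ndufa4l2 included) and 18 rows of complex V. The symbol rule also takes in a few genes that are not subunits, such as the complex I assembly factors and Atp5s.

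The study held 44 libraries, 22 of purified primary microglia and 22 of purified primary astrocytes, all from untreated mouse cultures kept in media made for the human cells. For each cell type there were 4 libraries without Apoe (KO), 6 of genotype APOE44, 6 of genotype APOE33 and 6 of wild type (WT). The labels do not describe the APOE44 and APOE33 alleles. In such mice human APOE4 or APOE3 usually stands in place of the mouse gene. Per cell type, 3 of the 4 KO libraries were male, as were 3 of 6 for APOE44, 2 of 6 for APOE33 and 3 of 6 for WT. The labels name no mouse, litter, age or culture behind a library, so p-values measure the spread between these libraries, which may be technical in part. All WT libraries are in batch 2 and all others in batch 1, so a difference from WT cannot be told apart from a batch difference. One astrocyte library titled APOE33 (replicate 1) has WT in its genotype tag, and it was kept as APOE33 because its title and source name say so.

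The library totals were 83239599 to 143150569 counts. Mouse Apoe, which checks the genotypes, stood in microglia at 7.5 to 28.0 CPM (counts scaled to a common library size) in KO, 46.7 to 60.4 CPM in APOE44, 44.9 to 81.6 CPM in APOE33 and 45600 to 61100 CPM in WT. In astrocytes it was 9.29 to 13.2 CPM in KO, 19.6 to 29.4 CPM in APOE44, 19.8 to 30.6 CPM in APOE33 and 4950 to 6400 CPM in WT, so the mouse gene was far below WT in all 3 other genotypes. The summed level of 10 microglial marker genes was 12400 to 21600 CPM in microglia and 94.7 to 356 CPM in astrocytes. The sum of 10 astrocyte markers was 32.8 to 136 CPM in microglia and 9990 to 15300 CPM in astrocytes. No marker of either list was at 0 in all libraries of a group. Neuronal markers (6 genes) summed to 177 to 278 CPM in astrocytes and 0.454 to 8.12 CPM in microglia. Mural cell and fibroblast markers (6 genes) summed to 132 to 447 CPM in astrocytes and 0.793 to 4.98 CPM in microglia. Oligodendrocyte lineage markers (8 genes) summed to 62.8 to 174 CPM in astrocytes and 145 to 349 CPM in microglia. The part of minor cell types in the results below was not tested.

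Oxidative phosphorylation couples the transfer of electrons from nutrients to oxygen with the making of ATP in the inner mitochondrial membrane. Complex I takes electrons from NADH and complex II from succinate, complex III hands them to cytochrome c, complex IV passes them to oxygen, and complex V uses the proton gradient to make ATP. Complexes I, III, IV and V are built from nuclear and mitochondrial genes, whereas complex II is entirely nuclear. Several complex IV subunits exist as paired isoforms with different tissue ranges, one broad and the other typical of lung, testis, heart or skeletal muscle. Astrocytes are often described as strongly glycolytic cells, and microglia as cells that can move between respiration and glycolysis with their state.

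The promoters of 4 members that recur below are shown first, because the members differ in the short motifs that nuclear respiratory genes often carry. Each run is 300 bases, from 250 before to 50 after the RefSeq start, on build GRCm38.p6, and is printed 5′ to 3′ on the gene's own minus strand. Capitals mark matches, on either strand, to the ETS motif of GABPA (CCGGAAG) or to the NRF1 motif (GCGCANGCG). Cox6b1 and Cox6b2 encode the broad and the testis-type isoform of one complex IV subunit, Cox8a a small complex IV subunit, and Uqcr11 a small complex III subunit.
Cox6b1, chr7:30626065-30626364: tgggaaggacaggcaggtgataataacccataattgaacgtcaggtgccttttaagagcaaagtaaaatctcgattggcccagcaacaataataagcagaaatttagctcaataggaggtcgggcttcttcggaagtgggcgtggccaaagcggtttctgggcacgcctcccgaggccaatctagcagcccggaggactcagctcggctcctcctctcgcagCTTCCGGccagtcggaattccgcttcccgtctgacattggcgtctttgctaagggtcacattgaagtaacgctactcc
Cox6b2, chr7:4753045-4753344: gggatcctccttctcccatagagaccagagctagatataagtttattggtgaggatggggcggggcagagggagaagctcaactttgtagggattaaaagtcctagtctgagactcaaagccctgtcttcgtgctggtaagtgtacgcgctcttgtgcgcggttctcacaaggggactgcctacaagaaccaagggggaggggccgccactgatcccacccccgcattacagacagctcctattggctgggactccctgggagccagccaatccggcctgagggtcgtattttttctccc
Cox8a, chr19:7217567-7217866: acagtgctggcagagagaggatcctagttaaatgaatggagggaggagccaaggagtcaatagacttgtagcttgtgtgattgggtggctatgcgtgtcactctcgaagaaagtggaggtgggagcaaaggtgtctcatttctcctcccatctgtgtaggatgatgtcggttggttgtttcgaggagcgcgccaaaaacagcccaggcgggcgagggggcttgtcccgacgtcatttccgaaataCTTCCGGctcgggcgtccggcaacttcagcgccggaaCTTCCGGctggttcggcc
Uqcr11, chr10:80406772-80407071: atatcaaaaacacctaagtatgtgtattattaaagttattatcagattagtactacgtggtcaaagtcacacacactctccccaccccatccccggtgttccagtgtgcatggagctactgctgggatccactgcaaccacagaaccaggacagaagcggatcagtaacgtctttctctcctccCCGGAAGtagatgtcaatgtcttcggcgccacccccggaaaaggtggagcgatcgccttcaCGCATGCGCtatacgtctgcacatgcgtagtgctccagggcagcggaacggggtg

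Cox8a held 2 ETS matches, Cox6b1 held 1, Uqcr11 held 1 ETS and 1 NRF1 match, and none of the motifs searched was in the Cox6b2 window. The windows of Cox7a2 and Cox7a2l, which also recur below and are not printed, held none of them either. RefSeq promoters were matched for 76 of the 94 symbols, 81 promoters in all. The NRF1 motif lay in 23 of the 81 (28.4%), against 8.6% of all 21263 promoters of RefSeq protein-coding genes. The ETS motif lay in 18 (22.2%), against 11.6% of all. A YY1 motif (AAGATGGCG) was in 8 (9.9%), against 1.8%, and an ERR-alpha motif (AAGGTCA) in 8 (9.9%), against 4.1%. These are letter matches in one window and were not tested.

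The members together took 0.562% of all counts in KO microglia, 0.551% in APOE44, 0.553% in APOE33 and 0.535% in WT microglia (group means), against 0.807%, 0.838%, 0.873% and 0.866% in the KO, APOE44, APOE33 and WT astrocytes. Levels from here on are CPM after TMM scaling over the 44 libraries, a step that sets the bulk of genes equal between libraries. On that scale the summed level was 7030 ± 177 CPM in KO microglia, 6510 ± 181 in APOE44, 6500 ± 257 in APOE33 and 6360 ± 220 in WT microglia (mean ± SD, n = 4 for KO and 6 for each other group). In astrocytes it was 6860 ± 220 CPM in KO, 7130 ± 309 in APOE44, 7390 ± 451 in APOE33 and 7000 ± 74.4 in WT. In KO the order of the cell types therefore rested on the scaling: KO microglia lay above KO astrocytes after scaling and below them as a share of counts. In APOE44, APOE33 and WT the microglial mean lay below the astrocyte mean on both scales, by a smaller margin after scaling. In cultures, fewer cells of a type and less RNA per cell cannot be told apart.

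**Figure D1:**
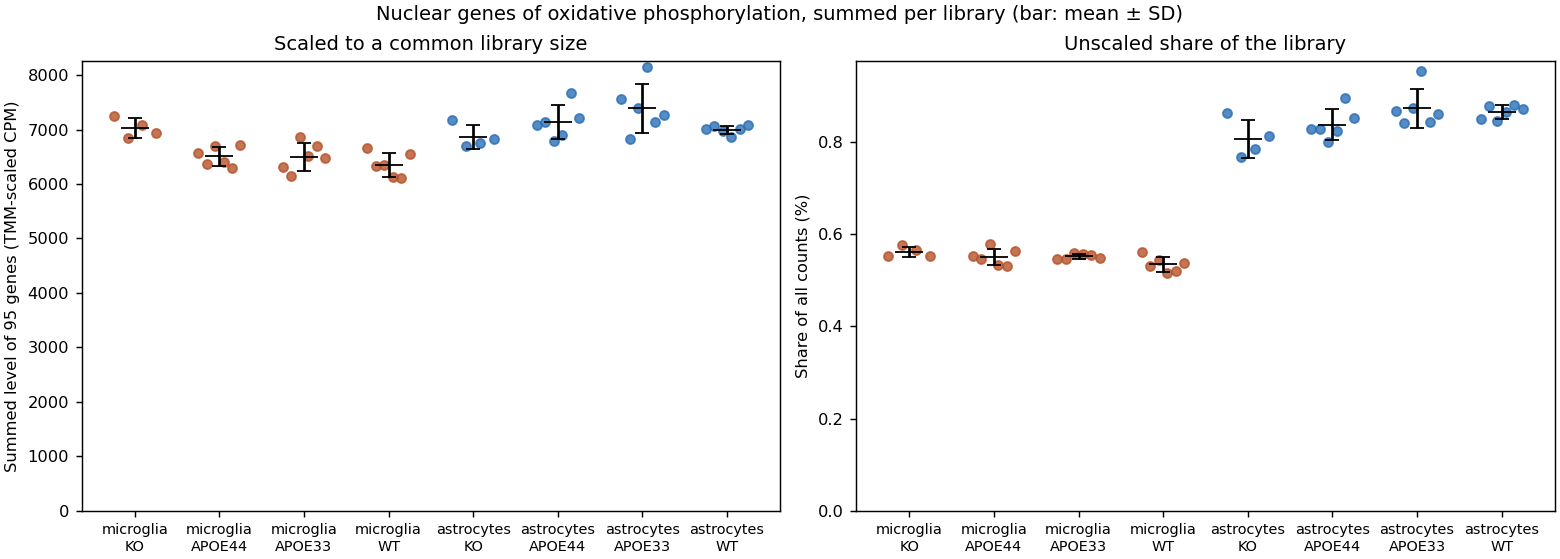
Summed level of the 95 rows in each library, as TMM-scaled CPM (left) and as percent of all counts (right), for the 8 groups of microglia (orange) and astrocytes (blue). Points are libraries and bars are mean ± SD; KO microglia average 7030 CPM on the left, above the other microglia, and all microglial libraries lie below all astrocyte libraries only on the right.

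By complex, on the scaled sums, microglia and astrocytes differed in make-up. Complex IV genes summed to 1610 ± 50.1 CPM in KO, 1450 ± 54.6 in APOE44, 1450 ± 66.7 in APOE33 and 1330 ± 59.0 in WT microglia, against group means of 1060, 1110, 1180 and 1070 CPM in the KO, APOE44, APOE33 and WT astrocytes. Complex II genes ran the other way, with 595 ± 15.9, 552 ± 13.1, 554 ± 19.6 and 578 ± 9.95 CPM in the same order of microglia and 776 ± 32.1, 784 ± 30.3, 781 ± 44.2 and 798 ± 23.6 CPM in astrocytes. The core of complex I, the part that carries the electron path, summed to 447 to 488 CPM as group means in microglia and 619 to 636 CPM in astrocytes. The complex V genes summed to 2120 to 2320 CPM as group means in microglia and 2310 to 2490 CPM in astrocytes.

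Within the set, levels per kilobase of exon spread widely. Cox8a had the highest value in both cell types, with a median of 289 CPM per kb in microglia and 223 in astrocytes. Atp5a1, the alpha subunit of the catalytic head of ATP synthase, had 159 and 210 CPM per kb. Ndufc2, a small accessory subunit, led complex I with 110 CPM per kb in microglia and 96.8 in astrocytes, and Uqcr11 led complex III with 92.1 and 93.7. In complex II the order itself differed: Sdhd, a membrane anchor, led in microglia (76.7 CPM per kb, against 41.7 in astrocytes), and Sdha, the flavoprotein, led in astrocytes (59.4 CPM per kb in microglia, against 129 in astrocytes).

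Microglia and astrocytes were compared in the 32 libraries of batch 1 and, separately, in the 12 WT libraries, with edgeR's quasi-likelihood test, sex as a covariate and Benjamini-Hochberg adjustment over all genes tested. Calls are adjusted p below 0.05 throughout, and fold changes are log2 ratios ± SE. In batch 1, 30 members were higher in microglia and 49 lower, of 91 tested, when 86.1% of all genes were called (37.8% higher and 48.4% lower). In WT, 29 were higher and 48 lower of 90, at a background of 89.5% (41.6% higher and 47.9% lower). The member medians were -0.19 and -0.13, and those of all genes -0.26 and -0.13. The share called was thus near the background, and the result lies in which members went which way. Of 90 members tested in both sets of libraries, 72 were called in both. Of these, 27 were higher and 45 lower in both sets, and none went in opposite directions. They were 92.3% of the batch 1 calls and 93.5% of the WT calls. The overlap over all genes was not counted. Most genes were called in each set, so this overlap is not read as particular to the members. With no scaling factors the medians of all genes moved by -0.51 in batch 1 and -0.49 in WT. The splits became 6 higher and 75 lower and 5 higher and 79 lower. The directions below are therefore relative to the zero set by TMM scaling, and the medians of all genes lay below that zero. Upper-quartile scaling gave 21 higher and 57 lower in WT. RIN, the RNA integrity number, was 9.6 to 10.0 in microglia and 8.9 to 9.7 in astrocytes. With RIN as a covariate the WT calls were 18 higher and 24 lower.

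**Figure D2:**
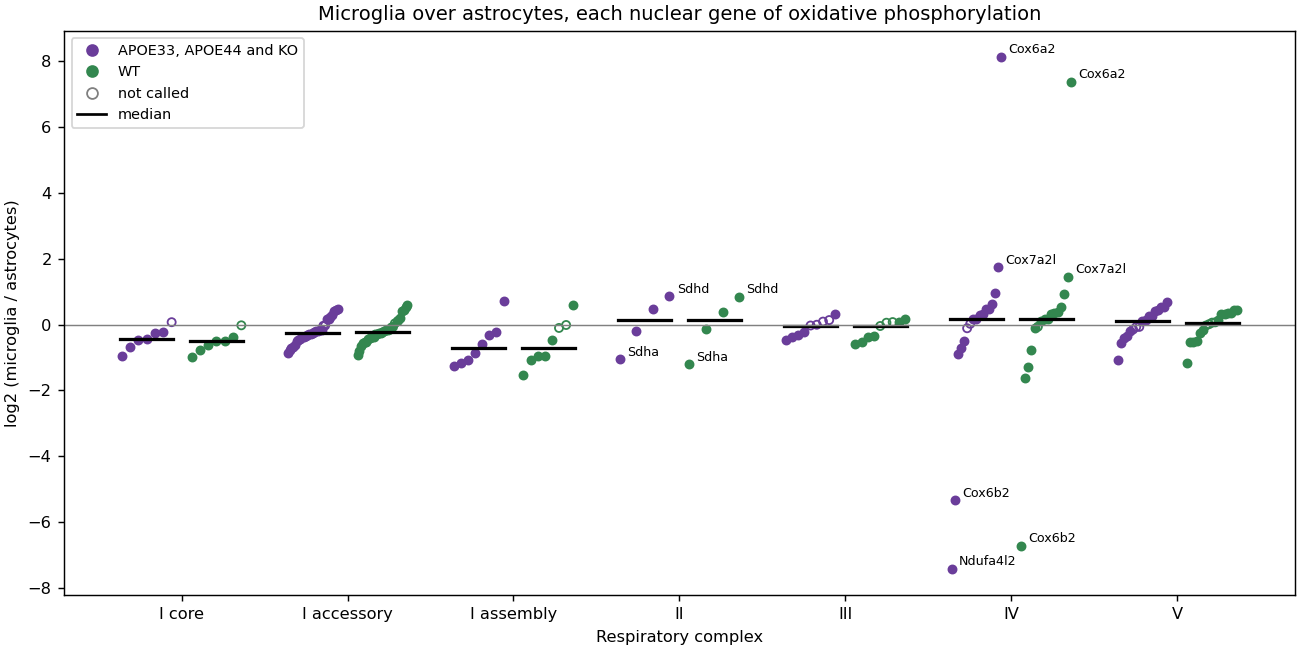
Log2 ratio of microglia over astrocytes for each tested member, by complex, in batch 1 (purple) and WT (green). Filled points were called at adjusted p below 0.05, open points were not, and bars are medians; complex I medians lie below 0 and those of complex IV above 0, with Cox6b2 and Sdha far below and Cox7a2l and Sdhd above. The fitted ratios of Cox6a2 and Ndufa4l2 rest on near-zero counts in one cell type.

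Complex I genes were mostly lower in microglia. Of the 7 core subunits 6 were lower and none higher in each comparison (medians -0.44 in batch 1 and -0.51 in WT), of 29 accessory subunits 7 were higher and 20 lower in each (medians -0.27 and -0.22), and of 8 assembly factors 1 was higher in each while 7 and 5 were lower (medians -0.72 and -0.71). The accessory median in batch 1 was close to that of all genes (-0.26), and in WT the accessory median was below that of all genes (-0.13). Ndufv1, the subunit that binds NADH, had 61.3, 58.5, 59.4 and 58.2 CPM in the 4 KO microglia, 54.0, 55.3 and 59.6 CPM as lowest, median and highest of APOE44, 53.8, 55.0 and 60.0 of APOE33, and 52.1, 53.5 and 58.0 of WT microglia. In astrocytes it had 114, 103, 101 and 107 CPM in KO, 103, 108 and 121 as lowest, median and highest of APOE44, 102, 112 and 119 of APOE33, and 99.3, 103 and 106 of WT. No microglial library reached the lowest astrocyte library. The log2 ratio was -0.95 ± 0.04 in batch 1 (edgeR quasi-likelihood, adjusted p = 1.11e-18) and -0.99 in WT (adjusted p = 2.94e-13).

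Among the assembly factors, Ndufaf7, a methyltransferase that acts on a core subunit during assembly, had 14.3, 17.3, 17.1 and 15.7 CPM in KO microglia and 11.8 to 17.3 CPM over all microglia. In KO astrocytes it had 33.1, 36.2, 33.1 and 34.8 CPM, and 31.5 to 37.1 CPM over all astrocytes. The ranges were far apart, with log2 ratios of -1.26 ± 0.04 in batch 1 (adjusted p = 4.81e-21) and -1.52 in WT (adjusted p = 1.75e-14). Ndufaf1 (-1.07 and -0.97), Ndufaf5 (-1.18 and -1.07) and Ndufaf4 (-0.87 and -0.96) were lower too. The exception was Ndufaf8, which had 11.7 to 18.5 CPM in microglia and 7.98 to 11.6 CPM in astrocytes, with log2 ratios of 0.72 and 0.61. With no scaling factors the WT ratio of Ndufaf8 was 0.12 and no longer called (adjusted p = 0.0686).

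Complex II split within itself. Sdha, which oxidises succinate, had 287, 264, 276 and 272 CPM in KO, 239, 243 and 255 CPM as lowest, median and highest of APOE44, 227, 250 and 267 of APOE33, and 238, 243 and 248 of WT microglia. Astrocytes held 578, 536, 511 and 531 CPM in KO, and 513, 538 and 565, 497, 512 and 587, and 512, 532 and 564 CPM in the APOE44, APOE33 and WT groups. No microglial library came near the astrocyte range, and the ratio was -1.06 ± 0.04 in batch 1 (adjusted p = 1.67e-19) and -1.20 in WT (adjusted p = 2.38e-14). Sdhd, which anchors the complex in the membrane, had 102, 97.3, 108 and 103 CPM in KO microglia and 85.3 to 108 over all microglia, against 50.7, 49.4, 52.0 and 51.3 CPM in KO astrocytes and 47.4 to 60.8 over all astrocytes. Its ranges did not overlap either, in the other direction (0.87 ± 0.03 in batch 1, adjusted p = 1.68e-19, and 0.84 in WT, adjusted p = 6.91e-13). Sdhb, the iron-sulfur subunit, was higher (0.48 and 0.39), though with no scaling factors it was -0.03 and -0.10. Sdhc, the other anchor, was slightly lower (-0.21 and -0.12), a call lost with RIN as a covariate (adjusted p = 0.25 and 0.379).

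Complex III and complex V were mixed. In complex III, 1 of 9 members was higher and 4 lower in batch 1, and 2 higher and 4 lower in WT. The core proteins Uqcrc1 (-0.36 and -0.38) and Uqcrc2 (-0.45 and -0.60) and the Rieske iron-sulfur protein Uqcrfs1 (-0.32 and -0.52) were among the lower ones. Uqcr11 was not called (-0.03 and 0.06). In complex V, 9 of 17 were higher and 5 lower in batch 1, and 7 higher and 6 lower in WT. Both large subunits of the catalytic head were lower, Atp5a1 by ratios of -0.34 and -0.54 and Atp5b by -0.42 and -0.50, whereas Atp5c1, of the central stalk, was at 0.45 in batch 1 and turned to -0.07 with no scaling factors. Atp5s, which is not counted among the subunits of ATP synthase, was lower (-1.09 and -1.16). Of the 3 genes for subunit c of the rotor, Atp5g3 had the highest level per length, with group means of 50.8 to 56.5 CPM per kb in microglia and 56.1 to 63.1 in astrocytes. Atp5g2 had 26.8 to 36.9 and 18.7 to 22.1 CPM per kb, and Atp5g1 had 9.72 to 10.7 and 7.44 to 8.96. Atp5g2 shares 34.7% of its 100-base words with other sequences, so its count is uncertain, and its WT ratio of 0.45 turned to -0.04 with no scaling factors.

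Complex IV genes were more often higher in microglia, 10 of 17 higher and 5 lower in batch 1 (median 0.17), and 10 of 16 higher and 5 lower in WT (median 0.16). Cox7a2l, which helps complexes III and IV join into supercomplexes, had 217, 249, 259 and 223 CPM in KO microglia, 206, 211 and 222 CPM as lowest, median and highest of APOE44, 198, 206 and 226 of APOE33, and 141, 156 and 166 of WT microglia. Astrocytes had 66.6, 65.3, 68.5 and 66.9 CPM in KO, 58.9 to 65.6 in APOE44, 56.2 to 67.7 in APOE33 and 53.6 to 56.3 in WT. Every microglial library lay above every astrocyte library. The ratio was 1.74 ± 0.04 in batch 1 (adjusted p = 1.01e-24) and 1.44 in WT (adjusted p = 3.01e-14). Cox4i1, the broad isoform of a regulatory subunit, had 342, 330, 337 and 323 CPM in KO microglia and 276 to 342 over all, against 153, 136, 144 and 145 CPM in KO astrocytes and 136 to 170 over all. It too did not overlap, with ratios of 0.97 ± 0.04 (adjusted p = 1.77e-20) and 0.92 (adjusted p = 8.44e-13).

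The isoform pairs of complex IV set the cell types further apart. Cox6b1 had 124, 110, 121 and 111 CPM in KO microglia and 73.2, 68.4, 66.0 and 67.8 CPM in KO astrocytes. The testis-type isoform Cox6b2 had 1.18, 0.957, 0.772 and 1.03 CPM in KO, 0.412, 0.953 and 1.16 CPM as lowest, median and highest of APOE44, 0.321, 0.571 and 0.854 of APOE33, and 0.435, 0.606 and 0.72 of WT microglia, which were 32 to 104 counts a library. In astrocytes it had 44.9, 45.0, 53.5 and 49.8 CPM in KO, 26.0, 29.2 and 36.1 in APOE44, 21.1, 30.9 and 40.5 in APOE33 and 56.9, 58.7 and 67.6 in WT. Per length, Cox6b2 stood at group means of 43.6 CPM per kb in KO, 26.9 in APOE44, 28.6 in APOE33 and 54.7 in WT astrocytes, next to 97.3, 118, 128 and 108 CPM per kb of Cox6b1. In microglia Cox6b2 had 0.537 to 0.889 CPM per kb and Cox6b1 149 to 165. The ratio was -5.34 ± 0.19 in batch 1 (adjusted p = 4.77e-20) and -6.72 in WT (adjusted p = 6.28e-17). Astrocyte markers summed to 32.8 to 136 CPM in the same microglia, and the part of minor astrocytes in these Cox6b2 counts was not tested.

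Cox6a2, the heart and muscle isoform of Cox6a1, showed the reverse. It had 5.26, 4.83, 3.93 and 5.26 CPM in KO, 2.57, 3.11 and 3.73 as lowest, median and highest of APOE44, 2.93, 3.44 and 4.31 of APOE33, and 2.65, 2.79 and 3.8 of WT microglia, or 207 to 447 counts a library. The 22 astrocyte libraries held 0 to 6 counts each, 50 in all, and 7 were at 0. Per length, Cox6a1 was far above it, with group means of 205 to 265 CPM per kb in microglia and 175 to 241 in astrocytes, when Cox6a2 had 4.39 to 7.09 in microglia. Cox6a2 shares 10.3% of its exon bases with Itgad, an integrin gene, so its count is uncertain where reads fall on both. The 6 markers of heart and skeletal muscle summed in microglia to 0.0134 to 0.0706 CPM in KO, 0.0124 to 0.157 CPM in APOE44, 0.0429 to 0.21 CPM in APOE33 and 0.754 to 3.38 CPM in WT, so the WT sums stood apart, while Cox6a2 was not highest in WT. Their part in the Cox6a2 level was not tested.

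The remaining tissue-restricted isoforms were low. Cox7a1, the heart-type partner of Cox7a2, had 0.562 to 1.67 CPM in microglia and 1.15 to 2.81 CPM in astrocytes. Per length its group means were 1.37 to 2.58 CPM per kb in microglia and 2.33 to 4.21 in astrocytes, when Cox7a2 had 50.8 to 56.7 and 42.5 to 50.2. Cox4i2, the lung-type partner of Cox4i1, had 0.172 to 0.767 CPM in microglia and 0.269 to 1.6 CPM in astrocytes. Ndufa4, a complex IV subunit first assigned to complex I, was lower in microglia (-0.91 ± 0.08 and -1.28, adjusted p = 7.06e-12 and 6.08e-13); its paralog Ndufa4l2 had 7 counts in all microglia and 1 to 38 counts per astrocyte library. Cox8c had no count in microglia and 18 counts in all astrocytes, and Cox7b2 had 2 and 31. Its partner Cox7b had 46.6 to 71.8 CPM in microglia and 42.3 to 58.2 CPM in astrocytes. Cox8b, the heart-type partner of Cox8a, went with WT and its batch: 0 to 3 counts in every KO, APOE44 and APOE33 microglial library, against 6 to 16 counts in the WT ones, and 0 to 7 counts in the KO, APOE44 and APOE33 astrocytes, against 4 to 22 in WT. The heart and skeletal muscle markers moved the same way, in astrocytes with sums of 2.25 to 5.04 CPM in KO, APOE44 and APOE33 and 6.59 to 14.2 CPM in WT, and their part in the Cox8b counts was not tested.

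**Figure D3:**
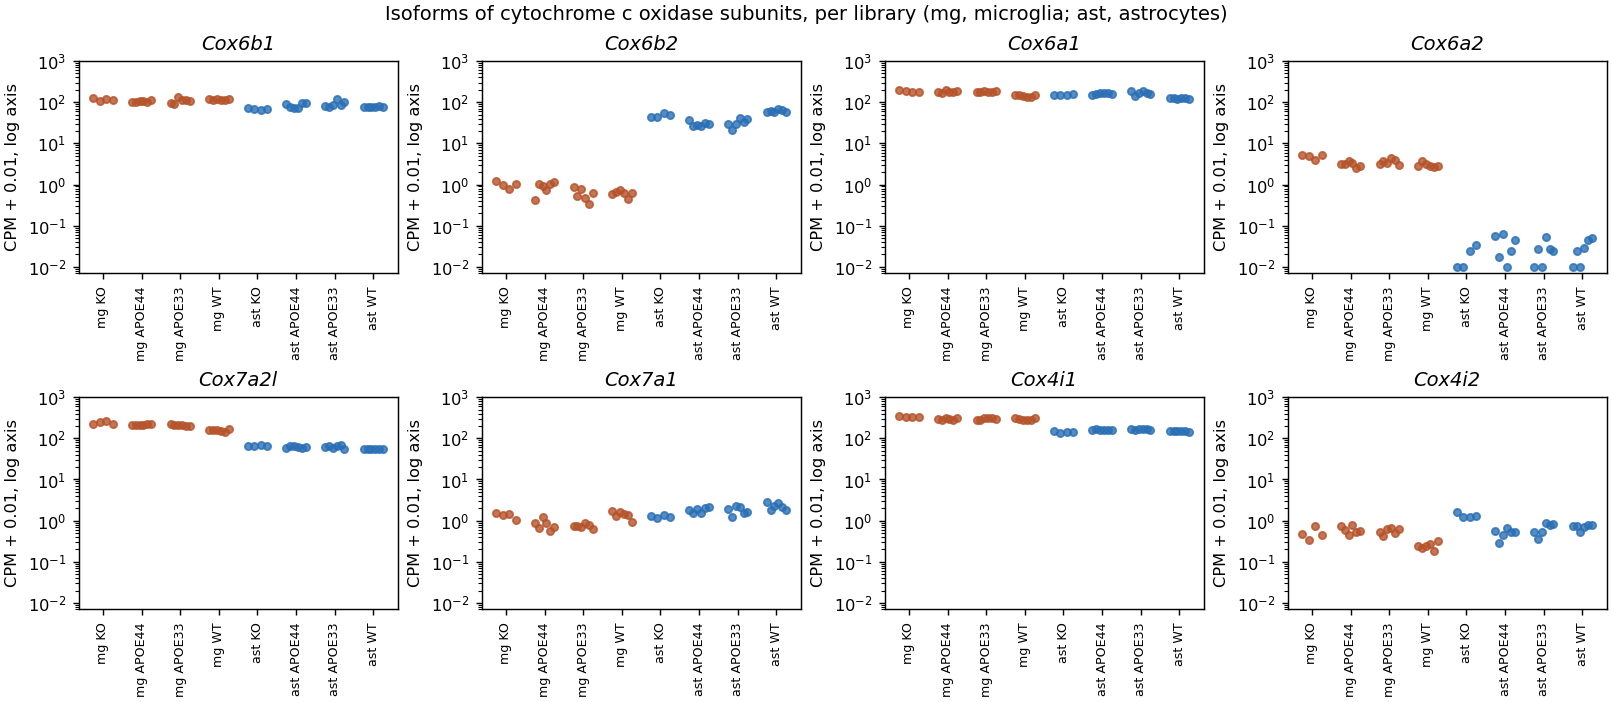
Level per library of 4 isoform pairs of complex IV subunits, as CPM + 0.01 on a log axis, for the 8 groups (microglia orange, astrocytes blue). Points are libraries; Cox6b2 is near 1 CPM in microglia and above 20 CPM in astrocytes, and Cox6a2 is seen in microglia while astrocytes lie at 0 to 6 counts.

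Gene groups next to the set, listed with earlier results of these data known, differed in their own ways between the cell types. In batch 1, 12 of 13 mitochondrially encoded subunits were lower in microglia and none higher (median -1.21), as were all 13 in WT (median -1.15). All 17 tested genes of the tricarboxylic acid cycle were lower in batch 1 (median -0.77), and 81 of 83 cytosolic ribosomal proteins were higher (median 1.81). Among regulators of mitochondrial genes, Ppargc1a, a coactivator of mitochondrial biogenesis, had 0 to 1.78 CPM in microglia and 28.0 to 50.3 CPM in astrocytes (-6.55 and -7.61, adjusted p = 1.73e-11 and 2.15e-17). Its relative Ppargc1b had 1.87 to 3.43 CPM in microglia and 0.0755 to 0.543 CPM in astrocytes (2.90 and 3.09). Of the factors behind the promoter motifs, Nrf1 (0.73 and 0.63) and Esrra (0.80 and 0.78) were higher in microglia and Gabpa lower (-0.28 and -0.39), while Tfam, which packages and transcribes mitochondrial DNA, was lower (-0.47 and -0.45).

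The loss of Apoe was set against the APOE33 allele within each cell type, in batch 1 alone. In microglia 15 of 90 members were higher in KO and 3 lower, when 22.7% of all genes were called (10.9% higher and 11.9% lower). In astrocytes 29 of 90 were lower in KO and 3 higher, at a background of 17.2% (8.83% lower and 8.37% higher). The member medians were 0.07 in microglia and -0.15 in astrocytes, and those of all genes -0.02 and 0.00. Most single changes were small, under 0.5 on the log2 scale. In microglia the split hung on scaling: with no scaling factors it was 7 higher and 6 lower (median 0.00), against 3 higher and 23 lower in astrocytes. The median of all genes moved down with it in microglia, to -0.09, so the members still lay above all genes. In astrocytes the unscaled medians were -0.13 for members and 0.03 for all genes. Leaving out each library in turn gave 12 to 22 calls in microglia. KO replicate 1 was the only female KO library of each cell type, so fits without it held no female KO library. The astrocyte count was sensitive to single libraries: it was 17 without APOE33 replicate 3, 19 without KO replicate 2, 19 without KO replicate 3 and 15 without KO replicate 4. Over all libraries left out in turn it lay between 15 and 39.

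Markers moved along with these groups. In microglia the astrocyte marker sum was 92.0 to 136 CPM in KO and 32.8 to 87.1 CPM in APOE33, and the microglial marker sum 16300 to 17100 CPM in KO and 18000 to 21600 CPM in APOE33, with no overlap in either. Oligodendrocyte markers summed to 174 to 212 CPM in KO and 197 to 299 CPM in APOE33 microglia, with 3 of 8 lower in KO and none higher. Of the 10 microglial markers 4 were lower in KO and none higher, and of the 10 astrocyte markers 2 were higher and none lower. In astrocytes the astrocyte marker sum was 9990 to 12900 CPM in KO and 10400 to 15200 CPM in APOE33, and the microglial marker sum 167 to 326 CPM in KO and 113 to 356 CPM in APOE33. Mural cell and fibroblast markers summed to 132 to 296 CPM in KO and 269 to 352 CPM in APOE33 astrocytes. Neuronal markers summed to 250 to 278 CPM in KO and 191 to 263 CPM in APOE33 astrocytes, with overlap in both of these sums. Their part in the member changes was not tested.

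**Figure D4:**
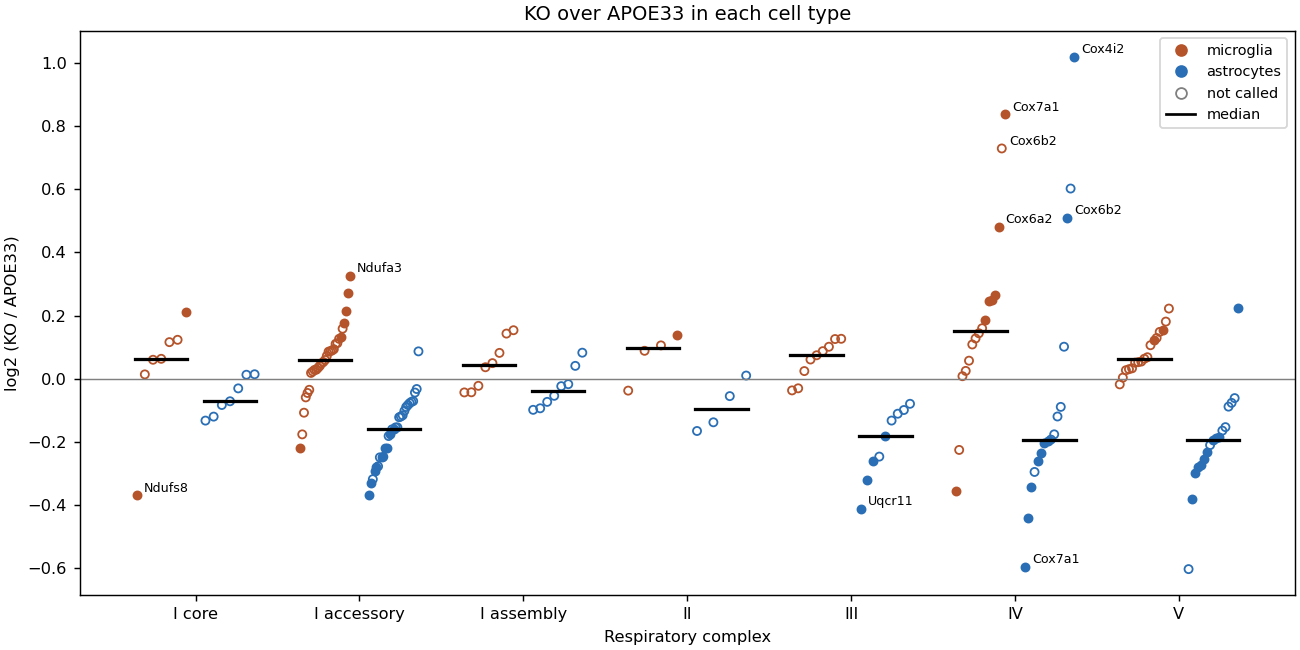
Log2 ratio of KO over APOE33 for each tested member, by complex, in microglia (orange) and astrocytes (blue). Filled points were called at adjusted p below 0.05, open points were not, and bars are medians; the microglial medians lie just above 0 and the astrocyte medians below 0 in every complex.

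In microglia the calls were spread over complexes I, II, IV and V: 1 higher and 1 lower of 7 core subunits, 5 higher and 1 lower of 29 accessory subunits, 1 member of complex II, 6 higher and 1 lower in complex IV and 2 higher in complex V, with none in complex III. The complex II call, Sdha (0.14, edgeR adjusted p = 0.0409), was lost in 10 of the 16 fits that left out 1 library (adjusted p up to 0.171). Atp5c1 of complex V (0.12, edgeR adjusted p = 0.0337) was lost in 5 of the 16 (adjusted p up to 0.102). Cox8a had 245, 222, 225 and 219 CPM in KO microglia, against 174, 188 and 206 CPM as lowest, median and highest in APOE33, with no overlap (0.26 ± 0.05, adjusted p = 0.00195). Cox6c had 108, 93.5, 103 and 102 CPM, against 77.6, 85.1 and 95.8 CPM, with 1 KO library inside the APOE33 range (0.25 ± 0.05, adjusted p = 0.00293). Cox5a, a nuclear subunit that faces the matrix, had 79.7, 75.8, 83.6 and 78.0 CPM, against 60.3, 65.9 and 70.7 CPM, all KO libraries above (0.25 ± 0.06, adjusted p = 0.00644). Cox6a2 was higher, from a low level (0.48 ± 0.13, adjusted p = 0.0151), though not called without KO replicate 1 (adjusted p = 0.0693). Cox7a1 had 1.49, 1.33, 1.48 and 0.999 CPM, against 0.633, 0.736 and 0.855 CPM (0.84 ± 0.22, adjusted p = 0.0107), and without KO replicate 1 it was not called (0.75, adjusted p = 0.0782).

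In complex I of microglia, Ndufc2 had 96.2, 99.0, 105 and 96.9 CPM in KO, against 76.3, 81.7 and 85.9 CPM as lowest, median and highest in APOE33 (0.27 ± 0.04, adjusted p = 0.000227). The groups were well apart. Ndufs8, a core subunit that holds iron-sulfur clusters, went the other way with 29.1, 31.5, 31.7 and 29.4 CPM in KO, against 36.6, 38.2 and 40.9 CPM (-0.37 ± 0.05, adjusted p = 8.34e-05). It was the member with the smallest p in this comparison and it kept its call in every alternative run. Ndufa4 was lower in KO microglia, with 57.4, 36.4, 39.1 and 45.7 CPM, against 51.6, 55.3 and 66.3 CPM (-0.36 ± 0.11, adjusted p = 0.0294), though KO replicate 1 lay inside the APOE33 range. The call was lost without APOE33 replicate 3 or 6 (adjusted p = 0.0605 and 0.088) and without KO replicate 2, 3 or 4 (adjusted p = 0.0936, 0.1 and 0.0545). Atp5a1 had 572, 540, 563 and 552 CPM, against 482, 494 and 506 CPM, without overlap (0.15 ± 0.04, adjusted p = 0.00613). With no scaling factors it was 0.08 and not called (adjusted p = 0.12).

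In astrocytes the lower genes belonged to complexes I, III, IV and V: 9 of 29 accessory subunits of complex I, 4 of 9 members of complex III, 7 of 16 of complex IV and 9 of 17 of complex V. No core subunit or assembly factor of complex I and no member of complex II was called. In complex III, Uqcr11 had 57.1, 52.5, 52.4 and 53.4 CPM in KO, against 60.9, 70.9 and 76.0 CPM as lowest, median and highest in APOE33. All KO libraries lay below all APOE33 libraries. The ratio was -0.41 ± 0.07 (edgeR quasi-likelihood, adjusted p = 0.00147). The other 3 of complex III were the small subunits Uqcr10 (-0.32, adjusted p = 0.0219), Uqcrb (-0.26, adjusted p = 0.0267) and Uqcrq (-0.18, adjusted p = 0.0263). Uqcr10 was lost without KO replicate 2 (adjusted p = 0.0532). Uqcrb was lost without APOE33 replicate 3, KO replicate 3 or KO replicate 4 (adjusted p = 0.0559, 0.0581 and 0.0766), and Uqcrq without KO replicate 1, 2 or 4 (adjusted p = 0.0711, 0.0743 and 0.052).

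Among the complex I accessory subunits, Ndufa1 had 28.9, 27.4, 28.4 and 26.4 CPM in KO astrocytes, against 30.5, 34.1 and 39.5 CPM as lowest, median and highest in APOE33, again with no overlap (-0.33 ± 0.07, adjusted p = 0.00413). Ndufs6, which supports the arm that accepts electrons, had 33.7, 34.0, 34.3 and 33.7 CPM, against 36.3, 40.1 and 43.4 CPM, also without overlap (-0.28 ± 0.06, adjusted p = 0.00415). Ndufb10 had 80.7, 72.2, 72.8 and 74.2 CPM in KO and 79.0 to 104 CPM in APOE33, so 1 KO library fell inside the APOE33 range (-0.29, adjusted p = 0.0121). Ndufc1 (-0.22, adjusted p = 0.0119) was lower as well.

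In complex IV, Cox4i1 had 153, 136, 144 and 145 CPM in KO astrocytes, against 155, 168 and 170 CPM as lowest, median and highest in APOE33 (-0.20 ± 0.04, adjusted p = 0.0062). Ndufa4 had 88.9, 93.2, 95.1 and 88.9 CPM, against 106, 111 and 131 CPM (-0.34 ± 0.07, adjusted p = 0.00421), and Cox7a2 had 41.5, 39.8, 39.4 and 39.9 CPM, against 45.1, 46.8 and 53.7 CPM (-0.26 ± 0.06, adjusted p = 0.0114). In all 3 the groups did not overlap. Cox4i2, at a low level, and Cox6b2 were the complex IV genes that were higher. Cox4i2 had 1.6, 1.22, 1.21 and 1.29 CPM in KO astrocytes, against 0.354, 0.66 and 0.858 CPM in APOE33 (1.02 ± 0.26, adjusted p = 0.0157), and without KO replicate 1 the ratio was 0.85 with adjusted p = 0.11. Cox6b2 had 44.9, 45.0, 53.5 and 49.8 CPM, against 21.1, 30.9 and 40.5 CPM (0.51 ± 0.15, adjusted p = 0.0303). Its call was lost without APOE33 replicate 1 or 3 (adjusted p = 0.053 and 0.0896) or without KO replicate 1, 3 or 4 (adjusted p = 0.118, 0.0723 and 0.0595). Cox6b1 was lower (-0.44 ± 0.13, adjusted p = 0.0296), a call lost without APOE33 replicate 6 (adjusted p = 0.072) or any one of the 4 KO libraries (adjusted p = 0.0517 to 0.0681).

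In complex V of astrocytes, Atp5mpl, a small subunit of the membrane part, had 32.9, 28.9, 29.5 and 27.3 CPM in KO, against 33.2, 34.6 and 41.6 CPM as lowest, median and highest in APOE33. The groups were separate by a narrow margin (-0.30 ± 0.08, adjusted p = 0.0138). Atp5g1 (-0.23, adjusted p = 0.0165) was lower. Atp5f1, of the peripheral stalk, was lower too (-0.19, adjusted p = 0.0227), a call lost without APOE33 replicate 3 or KO replicate 4 (adjusted p = 0.0588 and 0.0639). Atp5s was the higher one (0.22, adjusted p = 0.027), and it was not called without APOE33 replicate 3 or 6 or KO replicate 1, 3 or 4 (adjusted p = 0.0575, 0.0688, 0.191, 0.0543 and 0.0534). Neither Atp5a1 nor Atp5b was called: Atp5a1 had 653, 640, 628 and 637 CPM in KO, against 629, 663 and 693 CPM, and Atp5b had 761, 689, 702 and 720 CPM, against 674, 737 and 811 CPM.

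**Figure D5:**
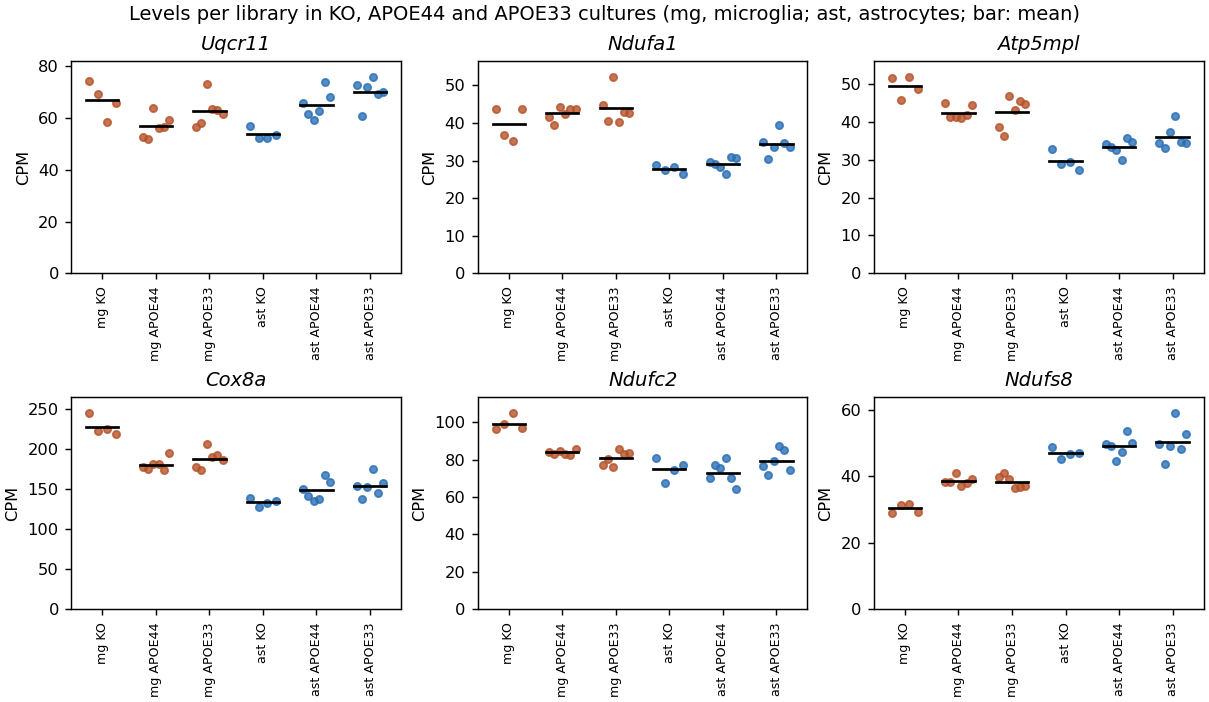
CPM per library of 6 members in KO, APOE44 and APOE33 microglia (orange) and astrocytes (blue), with bars at the group means. The KO mean is the lowest of its cell type for Uqcr11, Ndufa1 and Atp5mpl in astrocytes and Ndufs8 in microglia, and the highest for Cox8a and Ndufc2 in microglia.

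The difference between the cell types was tested as an interaction: the KO over APOE33 ratio in microglia minus that in astrocytes. It was called for 33 of 91 members, 32 higher and 1 lower, when 12.7% of all genes were called (6.18% higher and 6.55% lower), and the member median was 0.23, against -0.03 for all genes. With no scaling factors 13 were called, 11 higher and 2 lower (median 0.13, against -0.12 for all genes). Without KO microglial replicate 1 the count was 17. Of 89 members tested in both cell types, 65 had a positive ratio in microglia and a negative one in astrocytes, 2 the reverse, 8 were positive in both and 14 negative in both. Among these 89, the calls shared by both cell types were 5, or 29.4% of the 17 microglial ones and 15.6% of the 32 astrocyte ones. The same counts were not made over all genes, so neither the signs nor the shared calls are read as particular to the members. Cox7a1, Cox7c, Ndufs4 and Cox8a were higher in KO microglia and lower in KO astrocytes, and Ndufa4 was lower in both; these 5 were picked after their values were seen. With no scaling factors the microglial calls of Ndufs4 and Cox7c were lost (adjusted p = 0.101 and 0.0693). In astrocytes the call of Cox8a (adjusted p = 0.0422) was lost in 10 of the 16 fits that left out 1 library (adjusted p = 0.0523 to 0.103), without any one of the 4 KO libraries, APOE33 replicate 1, 3 or 6, or APOE44 replicate 1, 2 or 4. The call of Cox7c (adjusted p = 0.0486) was lost in 13 of the 16 (adjusted p = 0.051 to 0.143), in all but those without APOE33 replicate 6 or APOE44 replicate 4 or 6. That of Cox7a1 (-0.60, adjusted p = 0.0249) was lost without APOE33 replicate 3 or KO replicate 2 or 4 (adjusted p = 0.0871, 0.0616 and 0.0608), and that of Ndufs4 (-0.17, adjusted p = 0.022) without KO replicate 1 (adjusted p = 0.0523). The microglial call of Cox7c (0.19, adjusted p = 0.0182) was lost without KO replicate 1 (adjusted p = 0.0812).

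The interaction by complex was 1 of the core and 8 of the accessory subunits of complex I, 1 of complex II, 5 of complex III, 9 of complex IV and 8 of complex V, all with the higher ratio in microglia, next to Cox4i2 with the lower one (-1.25 ± 0.38, adjusted p = 0.0273). The Cox4i2 call was lost without astrocyte KO replicate 1 (adjusted p = 0.104) or APOE33 replicate 3 (adjusted p = 0.0537), or microglial KO replicate 1, 2 or 4 (adjusted p = 0.0688, 0.0599 and 0.0525). Ndufs4, an accessory subunit near the electron entry, had 23.9, 25.6, 25.7 and 24.3 CPM in KO microglia, against 19.0, 21.6 and 23.5 CPM as lowest, median and highest in APOE33 microglia. In astrocytes it had 37.9, 37.5, 36.4 and 36.9 CPM in KO, against 39.5, 40.4 and 45.9 CPM in APOE33. KO lay above APOE33 in one cell type and below it in the other, and the interaction was 0.38 ± 0.07 (adjusted p = 0.000424). Cox8a had 139, 127, 133 and 135 CPM in KO astrocytes, against 137, 153 and 175 CPM in APOE33, and its interaction was 0.49 ± 0.09 (adjusted p = 0.00062). Cox4i1 had 342, 330, 337 and 323 CPM in KO microglia, against 282 to 318 CPM in APOE33 microglia, and its interaction was 0.33 ± 0.06 (adjusted p = 0.000807). Those of Cox7a1 (1.43 ± 0.28, adjusted p = 0.000779), Atp5mpl (0.47 ± 0.10, adjusted p = 0.0022) and Uqcr11 (0.47 ± 0.11, adjusted p = 0.00514) kept their calls in every alternative run. For Cox7c (0.38, adjusted p = 0.00389), which shares 16.2% of its 100-base words with other sequences, the count is uncertain. The interaction of Ndufs8 was not called (-0.24, adjusted p = 0.0687), nor was that of Ndufa4 (-0.02, adjusted p = 0.988).

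KO was also set against APOE44, with the same KO libraries. In microglia 16 of 90 members were higher and 2 lower, at a background of 26.9% (13.6% higher and 13.4% lower). In astrocytes 3 were higher and 5 lower of 90, at 22.7% (11.0% higher and 11.8% lower). Markers moved here too: in microglia the astrocyte marker sum was 92.0 to 136 CPM in KO and 38.9 to 89.8 CPM in APOE44, and the oligodendrocyte marker sum 174 to 212 CPM in KO and 265 to 349 CPM in APOE44, with no overlap in either. In astrocytes the astrocyte marker sum was 9990 to 12900 CPM in KO and 12900 to 15300 CPM in APOE44. Their part in the member changes was not tested. In microglia Ndufs8 had 29.1, 31.5, 31.7 and 29.4 CPM in KO, against 37.0, 38.3 and 41.0 CPM as lowest, median and highest in APOE44 (-0.36, adjusted p = 5e-05), and Cox8a was higher (0.33, adjusted p = 0.000239), with 219 to 245 CPM in KO and 174 to 195 CPM in APOE44. Cox6a2 was higher as well (0.65 ± 0.13, adjusted p = 0.00135), with 3.93 to 5.26 CPM in KO and 2.57 to 3.73 CPM in APOE44. The microglial count was 9 without KO replicate 1 and 28 without APOE33 replicate 3, and with no scaling factors the split was 6 higher and 6 lower. Without scaling the microglial member median moved from 0.10 to 0.03, and that of all genes from -0.01 to -0.08. In astrocytes Cox4i2 had 1.6, 1.22, 1.21 and 1.29 CPM in KO, against 0.269, 0.509 and 0.67 CPM as lowest, median and highest in APOE44 (1.42 ± 0.26, adjusted p = 0.00117). Cox6b2 was higher too (0.64 ± 0.14, adjusted p = 0.00564), with 44.9 to 53.5 CPM in KO and 26.0 to 36.1 CPM in APOE44. Uqcr11 was lower, with 52.4 to 57.1 CPM in KO and 59.2 to 74.1 CPM in APOE44 (-0.30, adjusted p = 0.00526). The astrocyte count was 22 without APOE33 replicate 4, 15 without APOE44 replicate 3 and 5 without KO replicate 2, and with no scaling factors the split was 5 higher and 5 lower.

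APOE44 was compared with APOE33, the contrast between the APOE alleles. No member was called by edgeR in either cell type: 0 of 90 in microglia, at a background of 0.840% (0.379% higher and 0.461% lower), and 0 of 90 in astrocytes, at 0.703% (0.420% higher and 0.283% lower). At an unadjusted p below 0.05 there were 2 members in microglia and 17 in astrocytes, and DESeq2 called 0 in microglia and 4 in astrocytes. The share of all genes at that unadjusted threshold is not given, so these counts are not read as a result about the members. In microglia the median was -0.01 and the smallest adjusted p that of Ndufa3, with 38.1, 40.1 and 44.2 CPM as lowest, median and highest in APOE44 and 29.5, 34.0 and 44.9 CPM in APOE33 (0.19, adjusted p = 0.335), which was called without APOE33 replicate 3 (0.30, adjusted p = 0.0166). In astrocytes 83 of the 90 ratios were negative and 7 positive (median -0.07, against -0.0006 for all genes). The split of signs over all genes is not given. The smallest adjusted p was that of Ndufa1, with 26.4, 29.4 and 30.9 CPM in APOE44 and 30.5, 34.1 and 39.5 CPM in APOE33, ranges that overlapped by a little (-0.24 ± 0.06, adjusted p = 0.0752). Without APOE33 replicate 2 it was called (-0.27, adjusted p = 0.0213), and DESeq2 gave adjusted p = 0.0128. The interaction between the cell types was called for 0 of 91 members, at a background of 0.296% (0.152% higher and 0.143% lower), with 9 at an unadjusted p below 0.05. For this count too the share of all genes is not given. The smallest adjusted p was that of Cox7c (0.25, adjusted p = 0.157), which was called without astrocyte APOE33 replicate 6 (0.30, adjusted p = 0.0379).

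Some mitochondrially encoded subunits, which are not in the set, were called between the alleles in microglia. Of 13 tested, 7 were higher in APOE44 and none lower (median 0.40), when 0.379% of all genes were higher and 0.461% lower. These genes were not followed through other scalings or left-out libraries, unlike the members. mt-Nd1, a core subunit of complex I, had 1400, 1520 and 1620 CPM as lowest, median and highest in APOE44, against 948, 1110 and 1250 CPM in APOE33, with no overlap (0.48 ± 0.07, adjusted p = 0.00226). The nuclear core subunits of the same complex summed to 475 ± 14.1 CPM in APOE44 and 464 ± 6.29 CPM in APOE33. In astrocytes none of the 13 was called, and the interaction was called for 4, mt-Nd1 among them (0.55, adjusted p = 0.012).

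Against WT, where genotype and batch cannot be told apart, many members were called, as were many genes in general. The microglial marker sum stood apart as well, at 16300 to 17100 CPM in KO, 17100 to 20700 in APOE44 and 18000 to 21600 in APOE33 microglia, against 12400 to 15500 CPM in WT, and its part in these calls was not tested. In microglia the counts of 91 were 34 higher and 13 lower for KO (background 42.4%, of it 20.9% higher and 21.5% lower), 24 and 21 for APOE44 (45.4%, 22.3% and 23.1%) and 25 and 23 for APOE33 (44.8%, 22.2% and 22.6%). In astrocytes, of 90, they were 9 higher and 31 lower for KO (38.3%, 19.4% and 18.9%), 17 and 21 for APOE44 (41.7%, 20.6% and 21.1%) and 28 and 6 for APOE33 (39.0%, 20.1% and 18.9%). The splits moved with scaling: upper-quartile scaling gave 4 higher and 42 lower for KO, 11 and 29 for APOE44 and 21 and 17 for APOE33 in astrocytes. No scaling factors gave 12 higher and 29 lower for APOE44 and 24 and 15 for APOE33. In microglia KO had 28 higher and 22 lower with no scaling factors, and upper-quartile scaling gave 20 and 29 for APOE44 and 19 and 29 for APOE33. These 3 comparisons share the WT libraries of a cell type.

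Ndufa7, a complex I accessory subunit, was above WT in every comparison. In astrocytes it had 91.7, 80.0, 83.4 and 85.8 CPM in KO, 79.5, 85.2 and 94.0 CPM as lowest, median and highest in APOE44, 71.8, 86.1 and 111 in APOE33, and 54.3, 56.8 and 58.8 in WT. Every library of the other genotypes lay above the WT range. The ratios to WT were 0.55, 0.58 and 0.63 for KO, APOE44 and APOE33 (adjusted p = 3.25e-05, 2.65e-06 and 1.63e-06). In microglia it had 74.0, 65.2, 66.6 and 66.7 CPM in KO, 55.4, 60.5 and 61.6 in APOE44, 55.9, 61.7 and 70.0 in APOE33 and 46.6, 51.0 and 55.1 in WT, again above WT (0.41, 0.23 and 0.29).

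Ndufaf4, a complex I assembly factor, was below WT in every comparison. In astrocytes it had 18.9, 17.6, 16.7 and 16.4 CPM in KO, 15.3, 16.5 and 17.9 CPM as lowest, median and highest in APOE44, 15.9, 17.6 and 18.4 in APOE33, and 21.4, 22.5 and 24.0 in WT. The WT libraries stood apart, with ratios of -0.42, -0.49 and -0.41 (adjusted p = 5.53e-06, 8.91e-08 and 1.65e-06). In microglia it had 9.39, 9.38, 9.24 and 9.3 CPM in KO, 8.68 to 10.6 CPM in APOE44, 8.73 to 9.88 in APOE33 and 10.7 to 13.3 in WT, with ratios of -0.39, -0.33 and -0.36. Atp5k, subunit e of ATP synthase, was below WT in microglia, with 27.2 to 33.7 CPM in KO, 21.9 to 26.8 in APOE44, 21.6 to 39.1 in APOE33 and 39.5 to 48.5 in WT (-0.55, -0.77 and -0.57). Cox8a was above WT in microglia, with 219 to 245 CPM in KO, 174 to 206 in APOE33 and 143 to 163 in WT (0.57 for KO, adjusted p = 1.42e-08, and 0.30 for APOE33).

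No member was called between male and female libraries by edgeR: 0 in microglia, at a background of 0.0664% (0.0277% higher and 0.0387% lower), and 0 in astrocytes, at 0.0752% (0.0376% higher and 0.0376% lower). At an unadjusted p below 0.05 there were 5 members in microglia and 0 in astrocytes, and DESeq2 called 0 in both. The share of all genes at that unadjusted threshold is not given. The smallest adjusted p was 0.997 for Ndufaf3 in microglia (0.12) and 1.0 for Cox7a2l in astrocytes (-0.05).

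The neighbouring gene groups in KO over APOE33 were as follows, next to 10.9% of all genes called higher and 11.9% lower in microglia. In microglia 25 of 82 cytosolic ribosomal proteins were higher and none lower (median 0.16), as were 10 of 18 glycolytic genes (median 0.27) and 5 of 17 genes of the tricarboxylic acid cycle, with 1 lower. Of 42 assembly factors outside the symbol rule, 9 were higher and 1 lower. In astrocytes 10 of 82 cytosolic (12.2%) and 7 of 77 mitochondrial ribosomal proteins (9.09%) were lower and none higher, shares near the 8.83% of all genes called lower. Glycolysis, the tricarboxylic acid cycle and the outside assembly factors are given for microglia alone, and the mitochondrial ribosome for astrocytes alone. No contrast between the cell types is drawn from these lists. Of the 13 mitochondrially encoded subunits 2 were higher and 1 lower in KO microglia and 2 higher in KO astrocytes. The short mt-Nd3 was higher in both, with 1.16 to 1.33 CPM in KO and 0.0921 to 0.354 CPM in APOE33 microglia (2.76 ± 0.34, adjusted p = 5.28e-05), and medians of 3.76 CPM in KO and 0.598 CPM in APOE33 astrocytes (2.24 ± 0.40, adjusted p = 0.00244). Among the regulators, Nrf1 was lower in KO in both cell types: 24.3, 25.0 and 27.3 CPM as lowest, median and highest in KO microglia, against 28.5, 30.0 and 30.6 CPM in APOE33 (-0.26 ± 0.04, adjusted p = 0.00059), and 14.8, 15.5 and 15.9 CPM in KO astrocytes, against 16.1, 17.1 and 18.2 CPM in APOE33 (-0.18 ± 0.05, adjusted p = 0.0307). The groups did not overlap in either. Ppargc1a in astrocytes was not called (0.00, adjusted p = 0.977), nor was Tfam in microglia (-0.11, adjusted p = 0.106) or astrocytes (-0.15, adjusted p = 0.0971).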

How the data were processed

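Total RNA was made into 44 NEBNext Ultra libraries and sequenced as paired 150-base reads, per the labels' protocols. The authors deposited one table of raw counts per Ensembl mouse gene. Per the submitters' processing notes the tools were STAR 2.5.3a, featureCounts, edgeR 3.26.8 and DESeq2 3.14, and the build named there is hg38, although the gene identifiers are mouse ones. Of the 54146 rows, 54079 matched GENCODE M21 by stable identifier, 52480 of them (96.9%) with the same version, and 67 did not match. M21 gave symbols, gene types and exon lengths. No label or header used here says whether counting was stranded or took multi-mapping reads. Counts of 1 to 9 were even in 62.4% to 78.7% of cases, so that reads of a pair may have been counted singly. Library totals were 83239599 to 143150569, and intervals from counts cover counting error only.

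Each comparison was fitted over all genes with edgeR 4.0.16 in R 4.3.3 (low-count filter, TMM scaling, robust quasi-likelihood F test, sex as covariate, Benjamini-Hochberg adjustment, threshold 0.05), 18 comparisons in all, tested first on simulated data. Genotypes were fitted together within a cell type. The microglia and astrocyte comparisons were fitted within batch 1 and within WT. Levels are CPM scaled by TMM over 44 libraries. SE is the log2 ratio divided by the square root of F. Alternatives were RLE, upper-quartile and no scaling, no filter, no sex term, RIN, a replicate block, DESeq2 1.42.0 and leaving out libraries. No scaling, and leaving out libraries in the comparisons that join both cell types, were chosen after seeing the data.

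The members and gene lists were chosen with earlier results of these data known. Genes named in a comparison were, per complex, up to 4 called members with the smallest adjusted p (or the 1 member with the smallest where none was called), the 6 highest and 6 lowest ratios between cell types, the isoform families, 6 regulators, and the highest and lowest level per kilobase of each complex. Not all of these are given values in the text. Within groups, 102 library pairs were compared, and none agreed within sampling noise (lowest chi-square per gene 12.2). Same-numbered microglia and astrocyte libraries deviated together, with a correlation over 0.1, in all 6 WT pairs (0.114 to 0.317) and all 6 APOE44 pairs (0.13 to 0.3), but in 2 of 4 KO and 2 of 6 APOE33 pairs. The number was taken as pairing in WT and APOE44, from the data, but the main fits did not use it. The ratios, SE and p-values given between cell types come from fits without a block, unless the block is named. The WT count was 76 with the block and 77 without. In batch 1, which joins APOE44 with KO and APOE33, the pairing with a block gave 79 calls for microglia over astrocytes, 28 for the KO interaction (33 without) and 0 for the APOE44 interaction. Promoters came from RefSeq (GRCm38.p6). Of 95 rows, 72 share no 100-base word with another sequence and 8 share over 10%, and 13 overlap another gene in over 10% of their exon bases.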

Additional observations from a re-analysis of the deposited data

Results flagged for a closer look

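The KO over APOE33 ratio differed between microglia and astrocytes for 33 members by the interaction test. The named ones, as log2 differences of microglia minus astrocytes, were Ndufv2 (0.24), Ndufs4 (0.38), Ndufb6 (0.34), Ndufc2 (0.34) and Ndufs6 (0.31) in complex I, Sdhd (0.22) in complex II, Uqcr11 (0.47), Uqcrb (0.38), Uqcrq (0.25) and Uqcr10 (0.42) in complex III, Cox8a (0.49), Cox7a1 (1.43), Cox4i1 (0.33), Cox7c (0.38), Cox7a2 (0.36), Cox6b1 (0.49), Cox7b (0.33) and Cox4i2 (-1.25) in complex IV, and Atp5mpl (0.47), Atp5g3 (0.31), Atp5g2 (0.35), Atp5g1 (0.28), Atp5a1 (0.22) and Atp5h (0.25) in complex V. Ndufb6 overlaps Smim27 in 39.0% of its exon bases, so its count is uncertain. Of these 24 named genes, 12 lost their call in at least 1 of the 32 fits that left out a library. Atp5g1 lost it in 23 (adjusted p up to 0.214), Ndufv2 in 21, Cox7b in 11, Atp5g2 in 10, Cox6b1 in 9 and Cox4i2 in 5. Sdhd lost it without astrocyte KO replicate 1 (adjusted p = 0.0597), and Uqcrb, Uqcr10, Cox7a2 and Atp5h without microglial KO replicate 1 (adjusted p = 0.0566, 0.115, 0.0503 and 0.0579). Uqcrq lost it without either of these (adjusted p = 0.052 and 0.113).

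Some single libraries stood apart from the rest of their group, 12 in 224 tests, close to the 1 in 20 that chance flags. In microglia these were the complex III sum of APOE33 replicate 3 (715.5 CPM), Ndufa1 in APOE33 replicate 3 (52.3 CPM), Cox8a in APOE44 replicate 6 (194.6 CPM), and Ndufaf7 in APOE44 replicate 5 (16.7 CPM) and APOE33 replicate 1 (15.5 CPM). In astrocytes they were the complex III sum of KO replicate 1 (730.0 CPM), Ndufaf7 in APOE44 replicate 1 (31.5 CPM), Cox7a2 (53.7 CPM) and Ndufa4 (131.3 CPM) in APOE33 replicate 4, Cox6a1 (117.8 CPM) and Ndufs8 (48.8 CPM) in WT replicate 6, and Cox4i2 in WT replicate 3 (0.533 CPM).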

How the results depend on the processing

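Member counts moved by more than 1.5 times under few alternatives. For APOE44 over APOE33 in astrocytes, where edgeR called 0, DESeq2 called 4 and the fits without the sex term or without scaling factors 1 each. DESeq2 called 14 (4 higher, 10 lower) for KO over APOE44 in astrocytes. The replicate block, in groups whose numbers were not shown to pair libraries, gave 11 (2 higher, 9 lower) for KO over APOE33 and 4 for KO over APOE44 in astrocytes, and 10 for KO over APOE33 in microglia. Across cell types within a genotype, an astrocyte library correlated best with the microglial library of its own number in 8 of 22 cases. That pairing differs from the block within a cell type. RIN as a covariate gave 42 for microglia over astrocytes in WT, where RIN and cell type nearly coincide, and no scaling gave 13 for the KO interaction. With no scaling, ratios of microglia over astrocytes turned in batch 1 for Sdhb (-0.034), Atp5c1 (-0.071), Cox8a (-0.052), Cox6b1 (-0.056), Cox7b (-0.21), Atp5g1 (-0.26), Cox6a1 (-0.36) and Cox7a2 (-0.35), and in WT for Sdhb (-0.10), Atp5g2 (-0.038), Cox7b (-0.18), Atp5g1 (-0.17), Cox8a (-0.33), Cox6a1 (-0.33) and Cox7a2 (-0.39). Cox7a2 in WT also turned with upper-quartile scaling (-0.022); the cause of the other moves was not tested. The block across cell types ended the interaction calls of Ndufv2, Atp5g2 and Atp5g1 (adjusted p = 0.0572, 0.074 and 0.0995).

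Leaving out single libraries gave 0 to 1 calls for APOE44 over APOE33 in astrocytes (1 without APOE33 replicate 2 or 6) and in microglia (1 without APOE33 replicate 3), and 0 to 1 for the interaction (1 without astrocyte APOE33 replicate 6). For KO over APOE33 it gave 15 to 39 in astrocytes, 12 to 22 in microglia and 17 to 44 for the interaction; for KO over APOE44, 5 to 22 and 9 to 28. Against WT it gave 30 to 44 for KO, 30 to 44 for APOE44 and 33 to 39 for APOE33 in astrocytes, and 43 to 50, 41 to 46 and 43 to 49 in microglia. It gave 76 to 80 for microglia over astrocytes in batch 1. For sex it gave 0. Of 338 named gene results, DESeq2 kept 334 on the same side of the threshold, RLE 333, upper-quartile scaling 321, RIN 320, the block 300 and no scaling 285.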
